A study of Homo sapiens with 2 samples.

Results

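miR-3960 and miR-2861 are a pair of human microRNAs (miRNAs) encoded side by side on chromosome 9, and they were followed here in samples titled as exosomes, small membrane vesicles shed by cells. They were chosen by probe name, hsa-miR-3960 (MIMAT0019337) and hsa-miR-2861 (MIMAT0013802), which gave 2 of the 2632 miRNA probes on the array. The choice also drew on the brightness of miR-3960 on the control array, so that brightness is a description here and not a finding. The same holds for its rank and its difference between the arrays, which use that control value. The series holds 1 Toray 3D-Gene array for each of 2 groups of U87MG delta EGFR cells, a glioblastoma line that carries a truncated epidermal growth factor receptor. The control cells are labelled as non-treated. The other cells received boron neutron capture therapy (BNCT). There a boron compound is taken up, and thermal neutrons then split its boron nuclei into short-range particles. Per the labels, exposure was to 25 ppm p-boronophenylalanine-fructose complex for 2 hours before irradiation, and medium was collected on day 3 afterwards. The sample titles name exosomes, but the extraction text in the labels speaks of RNA taken from cells, so whether vesicle or cell RNA was hybridised is not settled. Both groups grew in medium with serum depleted of exosomes. The labels carry the same treatment text for both samples and do not say whether the control received the compound or a sham irradiation, so compound, irradiation, handling, array and group cannot be told apart. With 1 array per group there was no replicate, no test and no p-value.

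An miRNA guides a silencing complex to messenger RNAs through its seed, bases 2 to 8 counted from its 5′ end. In mouse osteoblasts, the cells that build bone, the pair has been described as a loop with Runx2, the transcription factor that drives osteoblast differentiation. There Runx2 induces the cluster, miR-2861 represses the histone deacetylase Hdac5, which favours loss of Runx2 protein, and miR-3960 represses Hoxa2, a homeobox factor that restrains Runx2. None of these target genes was measured here.

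In the RefSeq annotation of GRCh38.p14, the MIR3960 hairpin lies at chr9:127785833-127785923 and the MIR2861 hairpin at chr9:127785918-127786007, so the 2 genes overlap by 6 bases and span 175 bases in all. Mature miR-2861 lies on the plus strand at chr9:127785971-127785989. The span ends 26 bases before the annotated start of CDK9, the kinase of the transcription elongation factor P-TEFb, and neither miRNA gene lies within an annotated exon or intron of it. The RefSeq promoter window of CDK9, from 250 bases before its start to 50 after, therefore covers both hairpins. Its GC content was 82%, against a median of 58.7% over 35116 promoter windows, and 1.28% of the windows were as rich in G and C or richer.

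**Figure D1:**
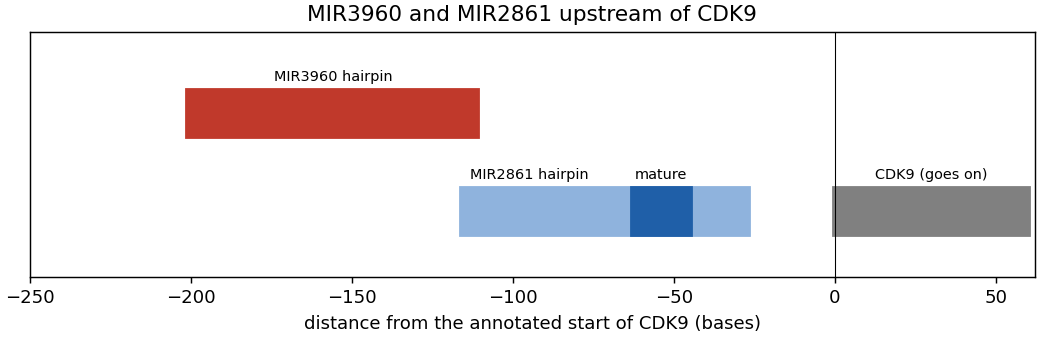
Map of the pair to scale, with the distance from the annotated start of CDK9 in bases on the horizontal axis. Bars mark the MIR3960 hairpin, the MIR2861 hairpin with its mature miRNA in darker blue, and the first bases of CDK9. The hairpins overlap by 6 bases and end 26 bases before CDK9.

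The sequences, from RefSeq (GRCh38.p14), are shown for their base composition, because brightness on the arrays went with it. The MIR3960 hairpin is given whole, with every copy of the letters GGCGG in capitals. The others are mature miRNAs with the seed in capitals, namely miR-2861 and, for comparison, the 5 brightest miRNAs on these arrays among those with a GC content of 80% or more. The mature sequence of miR-3960 was not used here.
MIR3960 hairpin: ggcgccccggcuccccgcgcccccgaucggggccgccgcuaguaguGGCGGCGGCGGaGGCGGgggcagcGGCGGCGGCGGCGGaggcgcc
hsa-miR-2861: gGGGCCUGgcggugggcgg
hsa-miR-6125: gCGGAAGGcggagcggcgga
hsa-miR-5787: gGGCUGGGgcgcggggaggu
hsa-miR-8072: gGCGGCGGggagguaggcag
hsa-miR-3665: aGCAGGUGcggggcggcg
hsa-miR-6089: gGAGGCCGggguggggcggggcgg

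The MIR3960 hairpin, 91 bases long, was 87.9% G and C and held GGCGG 8 times, counting overlapping copies. Among 1562 hairpins of the reference table, whose median GC content was 52.1%, 2 were as rich or richer, the MIR3960 hairpin included. Mature miR-2861, 19 bases long, was 89.5% G and C, with G alone at 68.4%, and held GGCGG 2 times. A mature sequence was found for 2337 of the 2632 probes, with a median GC content of 52.2%, and 18 of them were as rich as miR-2861 or richer, miR-2861 included. None of the other probes with a sequence shared bases 2 to 8 of miR-2861, and none shared bases 2 to 7.

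Both members were measured well above the blank spots on both arrays, and both spots read brighter on the BNCT array before any scaling. Values are spot medians of the Cy5 channel in scanner units, and the spot error combines the spread of the blank spots with that of the spike controls. It covers noise within an array and neither cultures nor arrays. miR-3960 read 807 units (spot error 26.7) in control and 1069 (spot error 65.6) in BNCT. By brightness it ranked 2 among the miRNA spots in control and 6 in BNCT. These ranks order spots, not amounts of RNA, since each probe binds with its own strength.

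miR-2861 read 424 units (spot error 10.4) in control and 507 (spot error 21.1) in BNCT, at ranks 71 and 94. The detection limits, the mean of the blank spots plus 2 SD, were 272 units in control and 267 in BNCT. Both members also passed stricter limits, 292 and 286 units at 5 SD of the blanks, and 322 and 314 units from 112 spots that carry no probe. On both arrays 13.4% and 8.47% of all probes passed these limits, and miR-3960 was chosen partly for its brightness. The spots without a probe averaged 301 units in control and 289 in BNCT, above the limits at 2 SD. An average spot without a probe would thus also pass as detected at 2 SD. Over all miRNA probes, 28.9% passed the limit in control, 36.4% passed it in BNCT and 24.1% passed it in both.

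**Figure D2:**
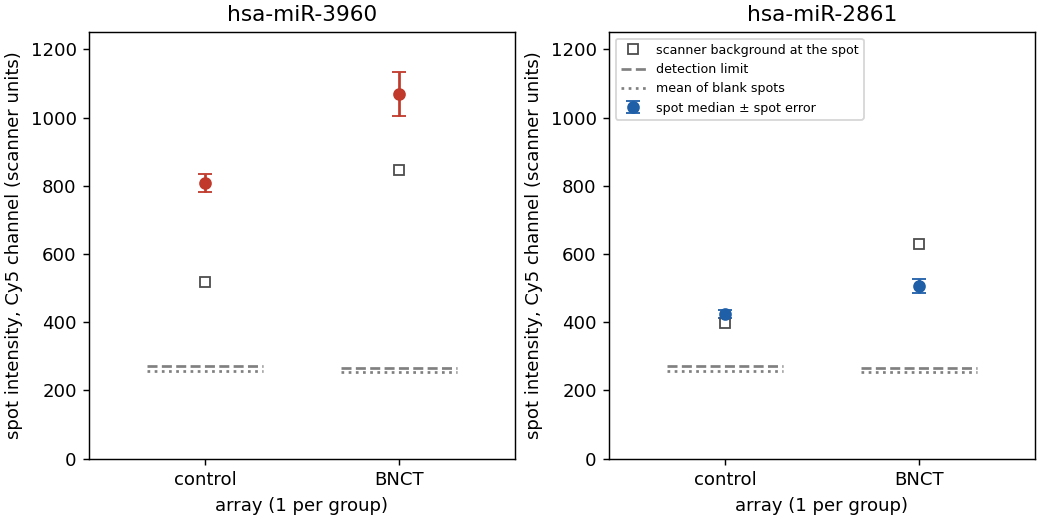
Spot median in the Cy5 channel, in scanner units, of miR-3960 and miR-2861 on both arrays, with the spot error as bars. Open squares are the scanner's background value at the same spot, dashed lines the detection limit and dotted lines the mean of the blank spots. Both miRNAs lie far above the limits, and the background square lies above the spot of miR-2861 on the BNCT array.

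The members' spots read brighter than the spots next to them on the slide. This is a description, since miR-3960 was chosen partly for its brightness and 28.9% of probes passed the limit in control. Around miR-2861 the 8 adjacent spots read 243 to 264 units in control and 243 to 261 in BNCT, so all were below its own value. Around miR-3960 the 8 adjacent spots read 247 to 429 and 262 to 526 units, also below its own value on each array. The scanner's background value was high at both members, and it followed spot brightness in general. Across the probes detected in control, Pearson's r between log2 spot and log2 background was 0.82. At miR-3960 it was 517 units in control and 848 in BNCT, against at most 318 and 377 at the adjacent spots. At miR-2861 it was 397 and 630 units, against at most 221 and 255 at the adjacent spots. On the BNCT array the background at miR-2861 lay above the spot itself, with a spot minus background difference of -123 units, a state found at 77 detected probes of that array and 11 of the control array. The blank spots were therefore used as background here.

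After subtraction of the blank mean, the BNCT value of miR-3960 was 1.48 times its control value, 814 against 549 units. The ratio of miR-2861 was 1.52, from 252 against 166 units. Over the 635 probes detected on both arrays the median ratio was 1.64, with quartiles of 1.36 and 1.99, and 427 probes had a higher ratio than miR-3960 and 404 a higher one than miR-2861. The spike control spots went the other way, with a BNCT to control ratio of 0.829. The gain of both members in raw brightness was thus within the middle of the probes' distribution.

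On the log2 scale after normexp background correction and quantile normalization, miR-3960 stood at 9.63 in control and 9.45 in BNCT, a difference of -0.18 (BNCT minus control, spot error 0.13). miR-2861 stood at 8.04 and 7.92, a difference of -0.12 (spot error 0.12). The differences came to 1.42 and 1.01 spot errors in size. The 635 probes with detection in both groups centred on -0.011 (median difference, SD 0.22), and 35.4% of the probes differed by more than miR-3960 in either direction and 49.8% by more than miR-2861. Neither member differed 2-fold. No probe did in this processing, 0% higher and 0% lower, and the offset of 50 added in the correction shrinks differences.

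**Figure D3:**
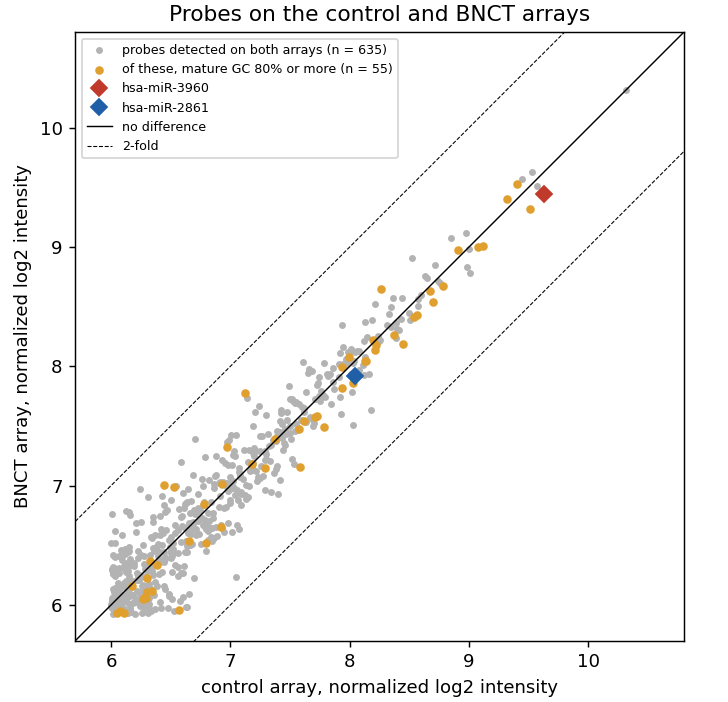
Normalized log2 intensity on the control array (horizontal) and the BNCT array (vertical) for the 635 probes detected on both. Diamonds are miR-3960 and miR-2861, orange points the 55 probes with a mature GC content of 80% or more, the solid line marks no difference and the dashed lines 2-fold. Both members lie just under the solid line.

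The differences of the members lay within error of each other. The difference of miR-3960 minus that of miR-2861 was -0.057 on the log2 scale (spot error 0.18), smaller than its own error. It ranged from -0.18 with plain subtraction of the blanks to 0.032 without normalization. The sign of each member's own difference followed the scaling. Both were negative under 8 of 11 settings and positive without normalization (0.53 for miR-3960, 0.50 for miR-2861), with scaling to the spike controls (0.82 and 0.79) and in the authors' deposited table (0.26 and 0.29). In the settings without normalization and with spike scaling the median of all shared probes was itself 0.48 and 0.77, and in the authors' deposited table it was 0.41. Relative to the median of each setting, miR-3960 lay between -0.40 and 0.050 and miR-2861 between -0.29 and 0.018. Both were under the median in 7 settings and over it in 4. Those 4 share a background correction and differ only by a constant per array. They therefore give the same values, 0.050 and 0.018, by construction and count as a single result.

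**Figure D4:**
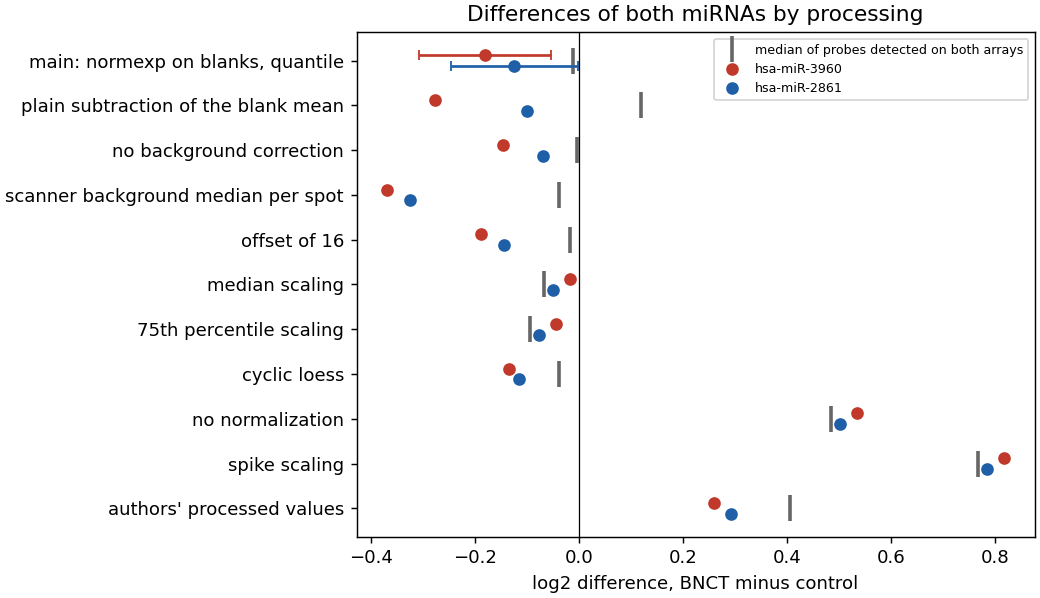
Log2 difference (BNCT minus control) of miR-3960 and miR-2861 under the 11 processing settings, with grey ticks at the median of the 635 probes detected on both arrays. Horizontal bars in the top row are spot errors. The widest gap between the members is in the row of plain subtraction, and both lie right of 0 only in the bottom 3 rows, where the grey tick does too.

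In the authors' deposited table, which gives processed intensities on a linear scale, miR-3960 was listed at 441 in control and 528 in BNCT and miR-2861 at 133 and 163. The table's median was 25 on each array. It listed 761 probes in control and 957 in BNCT, the same probes that passed the detection limits used here.

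Some probes read much like the members on both arrays, judged by the distance between their pairs of normalized log2 levels over 2 arrays. Nearest to miR-3960 were miR-6085 (797 and 1142 units, distance 0.084), miR-5787 (781 and 981 units, 0.18) and miR-6787-5p (793 and 1260 units, 0.21). Nearest to miR-2861 were miR-4695-5p (424 and 508 units, distance 0.023), miR-6784-5p (420 and 507 units, 0.035) and miR-4508 (429 and 514 units, 0.057). Of the 10 probes closest to miR-3960 in mean level, whatever their difference, 1 had a lower difference, and the 10 ranged from -0.19 to 0.14 with a median of 0.033. Of the 10 closest to miR-2861, 1 had a lower difference, and they ranged from -0.16 to 0.19 with a median of 0.055. Both members thus sat toward the low side of probes of like brightness in this processing, though their own differences were 1.42 and 1.01 spot errors in size. For miR-3960 this place is a description and not a finding, since the choice drew on the control value that enters its difference. The 10 probes beside miR-3960 had mean levels of 8.99 to 9.58 against its 9.54, so they reached further below it than above. Without normalization the members ranked 268 and 304 from the highest difference among 635 probes.

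Brightness went with base composition across the arrays. Across the 2335 unflagged probes with a mature sequence, Spearman's rho between GC content and spot brightness was 0.55 in control and 0.63 in BNCT. For the share of G alone rho was 0.38 and 0.49, and for C alone 0.063 and 0.027. The points of each correlation share an array, and probes are not independent replicates. Of 407 probes under 40% GC, 5.16% were detected in control and 3.44% in BNCT. Of 76 probes at 80% or more, miR-2861 among them, 78.9% and 82.9% were detected, and their median spot read 304 and 354 units. By hairpin composition, 33 probes had a hairpin at 80% or more. Of these, 27 (81.8%) were detected in control and 26 (78.8%) in BNCT, against 28.9% and 36.4% of all probes. miR-3960, chosen partly for its control brightness, was the brightest of these 33 on both arrays. The part of probe composition in this brightness was not tested.

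**Figure D5:**
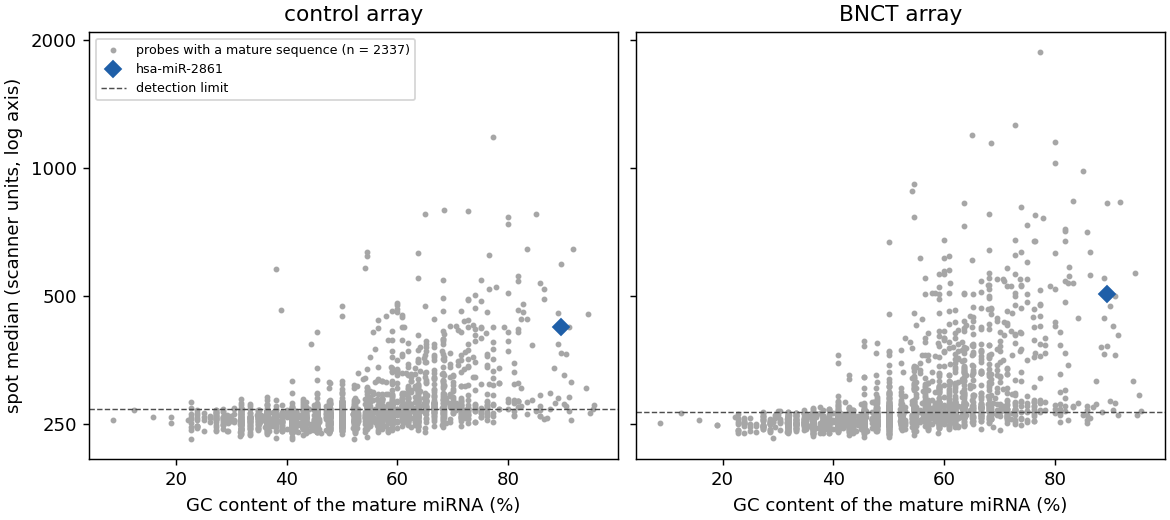
GC content of the mature miRNA in percent (horizontal) against spot median in scanner units on a log axis (vertical) for 2337 probes, with the control array on the left and the BNCT array on the right. The diamond is miR-2861 and the dashed line the detection limit. Spots far above the limit are mostly at GC contents over 50%.

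The letters GGCGG, which recur in the MIR3960 hairpin and in miR-2861, were searched on the given strand of the mature sequences. They were found in 60 of 2337 probes, of which 51 (85.0%) were detected in control and 55 (91.7%) in BNCT. Of the 2277 probes without them, 634 (27.8%) were detected in control and 796 in BNCT. The median difference of the probes with GGCGG detected on both arrays was 0.012, and that of probes without it -0.015. Detection thus differed with the motif while the difference between arrays hardly did. The motif is itself all G and C, and detection rose with GC content. In control it was 62.5% for probes at 60 to under 80% GC and 78.9% at 80% or more. Whether the motif adds to GC content was not tested. For the 55 probes at 80% GC or more detected on both arrays, the median difference was -0.10, close to that of miR-2861, and without normalization miR-2861 was itself their median probe at 0.50.

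The 5 GC-rich miRNAs printed above also differed little between the arrays. miR-6125 read 767 units in control and 1148 in BNCT (difference 0.13, spot error 0.13), and miR-8072 read 738 and 1029 (0.083, spot error 0.13). miR-5787 differed by -0.19, miR-3665 by -0.11 and miR-6089 by -0.073, each with a spot error of 0.13. The differences of these 5 had both signs, and the largest in size, of miR-5787, came to 1.52 spot errors.

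Other miRNAs known from bone read close to the detection limits. Of 12 miRNAs that repress RUNX2 in osteoblasts, 4 were detected on each array and 2 on both, near the shares of all probes (28.9%, 36.4% and 24.1%). Those on both were miR-133a-3p, the muscle miRNA (275 and 273 units, difference -0.064, spot error 0.21), and miR-211-5p, a paralog of miR-204 (277 and 282 units, difference 0.031, spot error 0.20). Of 23 further miRNAs studied in osteoblasts or osteoclasts, the control array showed 1, the BNCT array 4, and 0 were on both, beside the same shares of all probes. The brightest of them were miR-214-3p, which restrains bone formation in mice, on the BNCT array alone (258 and 280 units), and the p53 target miR-34a-5p on the control array alone (277 and 238 units). The highest reading of these 35 miRNAs was 281 units in control and 282 in BNCT. Both lay under the mean of the spots that carry no probe, 301 and 289 units. With the limit at 5 SD of the blanks 0 of the 35 was detected on both, where the share of all probes was 13.4%.

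Of 12 miRNAs abundant in glioma cells or glia, 2 were detected on each array (28.9% of all probes in control, 36.4% in BNCT) and 1 on both (24.1% of all probes). This was miR-24-3p (620 and 916 units, difference 0.14, spot error 0.13). miR-21-5p, miR-9-5p, miR-10b-5p, miR-221-3p and miR-222-3p were under the limit on both arrays.

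The 6 other annotated miRNA genes within 1 Mb of the pair were represented by 9 probes, of which 3 were detected in control and 2 in BNCT, against 28.9% and 36.4% of all probes. miR-3911, whose gene lies 95.0 kb away, read 292 units in control and 307 in BNCT (difference -0.13, spot error 0.17). miR-3154, 459 kb away, read 339 and 414 units (difference 0.15, spot error 0.13). miR-219a-5p, known from the maturation of oligodendrocytes, was above the limit in control alone (285 and 246 units). The nearest gene, MIR4672 at 83.4 kb, gave 245 and 245 units, and its probe was under the limit on both arrays, as were both probes of MIR199B. The probe for miR-199b-3p also reads miR-199a-3p, so its signal is not particular to this gene. Whether the other probes, that of miR-219a-5p among them, also read genes elsewhere was not tested. No probe of this region other than the pair read above 339 units in control or 414 in BNCT.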

How the data were processed

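miRNA of 1 control and 1 BNCT sample was measured on 1-colour (Cy5) arrays. The scanner files as deposited hold the spot median intensity of the Cy5 channel, with lines fitted between 3 gains, and a background median per spot, per the file headers, with no scaling between arrays. The authors' processed values are deposited as intensity on a linear scale, with steps not given in the sources used. R 4.3.3 was used, with spots corrected by limma 3.58.1 (nec, normexp on the 312 blank spots, offset 50), put on the log2 scale and quantile-normalized over 2632 miRNA probes. The 2 spots with a failure flag on the control array were not counted as detected. The limit was the mean plus 2 SD of the blanks without the top and bottom 5%. The spot error joins that SD and the spike control CV (4.70% and 8.03%). Precision is limited by the number of arrays. The steps were tested on simulated arrays.

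The members and lists were chosen with earlier results of these data known. Named miRNAs are the members, the 3 nearest probes to each, the 5 brightest at 80% GC or more, list members detected on both arrays or otherwise the 2 brightest of the list, and probes within 1 Mb. The 10 probes of like brightness, the motif search and the shares at 80% GC or more under other limits were added after the data were seen. Sequences came from RefSeq tables, and probes were matched by name.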

Additional observations from a re-analysis of the deposited data

How the results depend on the processing

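Each group had 1 array, so nothing could be left out and no difference has a replicate check. No paired analysis was possible because each group had 1 sample. The median over probes sharing the seed of miR-3960 was not run, since its mature sequence was not used here. Against the values of -0.18 for miR-3960 and -0.12 for miR-2861, the scanner's background column gave -0.37 and -0.33, no normalization 0.53 and 0.50, spike scaling 0.82 and 0.79, and values of 0.26 and 0.29 stood in the authors' deposited table. miR-3960 moved to -0.017 with median scaling and -0.044 with 75th percentile scaling, where miR-2861 stayed within its spot error. The difference between the members was largest in size with plain subtraction, at -0.178 against an error of 0.177, and smaller than that error under the other 9 alternatives. Spot errors were computed for the main processing alone, so 0.177 is not the error of plain subtraction. The median of probes at 80% GC or more was 0.50 if not normalized, 0.79 if scaled to the spikes and 0.28 for the authors' deposited table. The 2-fold counts of 0 higher and 0 lower became 35 and 17 by plain subtraction, 5 and 5 by an offset of 16, 0 and 11 by the scanner's column, 18 and 0 if not normalized, 114 and 0 by spike scaling, and, from the authors' deposited table, 72 higher and 15 lower. Neither member was among them. Both members stayed detected under the stricter limits, though miR-3960 was chosen partly for its brightness. The bone miRNAs detected on both arrays fell from 2 to 0 under the limit at 5 SD and 0 under that from spots without a probe, while the share of all probes went from 24.1% to 13.4% and 8.47%. Under the last limit 34 of the 55 probes at 80% GC or more were left. The causes were not tested.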
